A study of Mus musculus with 6 samples.

Results

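Transcription factors that set gut and liver identity were followed in 3 mouse cell lines derived from lung adenocarcinoma. The 8 genes were Hnf4a, Cdx2, Foxa1, Foxa2, Foxa3, Gata4, Gata6 and Cebpa. Of 12393 genes that the platform annotation names, these 8 were taken by symbol, and they have 14 of the 22690 probe sets on the array, 4 for Hnf4a, 2 each for Cdx2, Gata4 and Gata6, and 1 each for the other genes. The genes were chosen on their log2 levels in these lines, so differences between lines are described with no test. KPR4, KPR5 and KPR8, from mice of a mixed C57/B6-129SvJae background, were each measured on 1 array after 24 h with 250 nM 4-OH tamoxifen and on 1 array with ethanol, the solvent. The drug restores expression of p53, the tumour suppressor, in these cells per the labels. The alleles that make p53 restorable, and the promoter that drives them, are not given in the sources used here. Each line gave 1 array under each treatment, so the 3 lines are the replicates of the treatment and no line has a replicate of its own.

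HNF4A is a nuclear receptor that maintains hepatocyte gene expression and is also active in intestinal epithelium. CDX2 is the homeobox factor that gives the intestine its identity, and the FOXA proteins are forkhead pioneer factors that open chromatin for other endodermal regulators. GATA4 and GATA6 are zinc finger factors of the early endoderm, and C/EBP alpha is a leucine zipper factor of hepatocytes that also acts in the lung alveolus. FOXA1, FOXA2 and GATA6 belong to normal lung epithelium as well. In mouse lung adenocarcinoma, loss of the lung factor NKX2-1 is known to be accompanied by expression of stomach and gut genes, HNF4A among them.

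All values are log2 expression from GCRMA, so a difference of 1 is a 2-fold difference in signal. The 27 probe sets for Bacillus subtilis controls reached 2.84 and mark the background. Levels of different probe sets were not compared with each other, because probes differ in brightness, and where a gene has several they are told apart by their mean over the arrays (brightest to dimmest). The lung label was checked against marker genes. Nkx2-1 lay between 2.40 and 2.83 on the 6 arrays, at background, and the surfactant gene Sftpb and the club cell gene Scgb1a1 were at background too. Abca3 of alveolar type II cells lay between 6.89 and 8.32 on its brightest probe set. Dimmer Abca3 probe sets lay between 3.84 and 4.22 and between 3.12 and 3.92. The epithelial keratin Krt8 lay between 12.09 and 12.40. Of 22 lung epithelial genes with a probe set, 7 were at or under the background on every array. Of 24 p53 targets that passed the expression filter, 23 rose with the drug, against 9.17% of all tested genes. That list was drawn up with earlier results of the same arrays known.

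The DNA just upstream of the annotated starts is shown first for the 3 genes that differed most between the lines, because the factors are known to act on each other's promoters. The windows are the 250 bases before each start, from RefSeq on GRCm38.p6, which matched 6 of the 8 genes with 9 starts. Hnf4a has 2 starts that lie 40298 bases apart, the upstream one known as P2 and the downstream one as P1. They are chr2:163506607-163506856 and chr2:163546905-163547154, both on the plus strand. The Cdx2 window is chr5:147307250-147307499 on the minus strand and the Cebpa window chr7:35119043-35119292 on the plus strand. Capitals mark every match to the motifs named in the next paragraph, on either strand.
Hnf4a upstream start: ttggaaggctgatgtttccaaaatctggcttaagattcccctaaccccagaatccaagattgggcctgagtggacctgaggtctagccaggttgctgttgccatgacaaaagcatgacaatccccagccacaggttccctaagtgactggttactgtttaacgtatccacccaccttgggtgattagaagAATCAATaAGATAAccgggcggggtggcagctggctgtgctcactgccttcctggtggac
Hnf4a downstream start: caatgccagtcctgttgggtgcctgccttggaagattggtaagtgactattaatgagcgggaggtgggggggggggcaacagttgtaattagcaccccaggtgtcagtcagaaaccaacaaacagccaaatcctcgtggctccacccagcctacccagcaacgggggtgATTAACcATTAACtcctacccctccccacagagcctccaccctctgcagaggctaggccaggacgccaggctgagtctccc
Cdx2: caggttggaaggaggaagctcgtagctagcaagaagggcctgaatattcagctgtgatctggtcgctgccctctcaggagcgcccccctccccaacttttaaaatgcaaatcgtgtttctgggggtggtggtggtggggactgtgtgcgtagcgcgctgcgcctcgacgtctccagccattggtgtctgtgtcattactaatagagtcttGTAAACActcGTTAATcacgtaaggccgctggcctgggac
Cebpa: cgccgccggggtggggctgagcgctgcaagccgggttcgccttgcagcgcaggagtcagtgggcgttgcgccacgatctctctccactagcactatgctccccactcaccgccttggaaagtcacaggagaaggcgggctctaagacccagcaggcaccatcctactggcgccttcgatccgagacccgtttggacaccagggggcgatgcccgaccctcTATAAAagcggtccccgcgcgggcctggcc

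Short motifs of forkhead, GATA, HNF1 and HNF6 factors occurred in these windows. HNF1 and HNF6 are not among the genes followed here. Counted back from the start, the window at the upstream Hnf4a start held the HNF6 motif ATTGATT on the minus strand from -60 to -54. The GATA motif AGATAA followed on the plus strand from -52 to -47. At the downstream start, GTTAAT, the half-site of HNF1, occurred on the minus strand from -81 to -76 and again from -74 to -69. The Cdx2 window held TGTTTAC, a forkhead motif, on the minus strand from -40 to -34, and GTTAAT on the plus strand from -30 to -25. The only match in the Cebpa window was TATAAA, the TATA box, from -30 to -25. Both strands of 32851 windows of the same length were searched for comparison, and 6.43% held GTTAAT, 2.61% ATTGATT, 9.99% AGATAA, 3.17% TGTTTAC and 12.4% TATAAA. None of the 9 windows held the full HNF1 palindrome, which is GTTAAT followed after 1 base by its reverse complement and occurred in 0.00913% of all windows. None held the HNF4 motif CAAAGTCCA (0.384% of all windows) or the CDX2 motif TTTATGG (2.43%). The C/EBP motif TTGCGCAA (0.164%) and its gapped form TTGCNNAA, which contains it (9.56%), were not found either. A match describes the letters and does not show that a factor binds there, and the probe sets are not tied to either Hnf4a start in the annotation used.

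**Figure D1:**
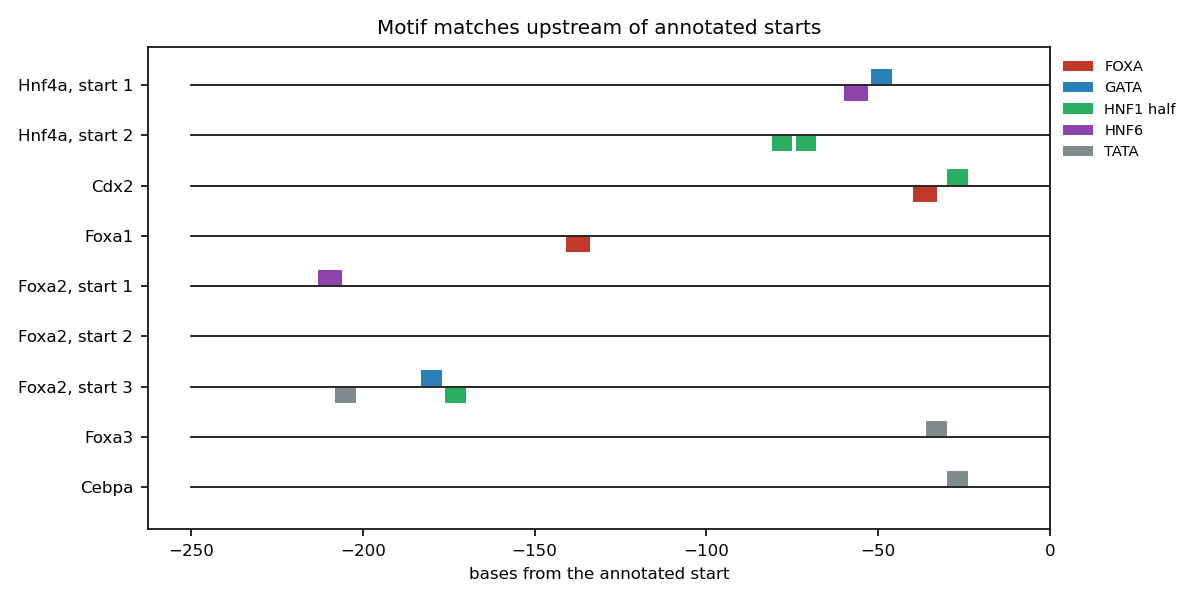
Motif matches in the 250 bases upstream of the 9 annotated starts, with the distance from the start in bases on the horizontal axis. Bars above a line are matches on the gene's own strand and bars below it are on the opposite strand. The forkhead and HNF1 half-site matches of Cdx2 lie within the last 40 bases before the start.

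Hnf4a was the member with the widest range between the lines. Its brightest probe set read 12.51 with the drug and 12.39 with ethanol in KPR4. In KPR5 it read 7.87 with the drug and 7.40 with ethanol, and in KPR8 it read 5.55 with the drug and 5.72 with ethanol. Each KPR4 array stood above each KPR5 array, and those above each KPR8 array. The line means put KPR4 28.2-fold above KPR5 and 113-fold above KPR8, and KPR5 4.01-fold above KPR8. Over all 22626 probe sets that are not controls, the difference of KPR4 from the mean of KPR5 and KPR8 ranked number 8 for this probe set and number 6 for the second brightest. In cell populations measured as a whole, fewer cells expressing a gene and less RNA per cell cannot be told apart.

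The other Hnf4a probe sets were also highest in KPR4, by very different amounts. The second brightest read 9.55 with the drug and 8.67 with ethanol in KPR4, 3.56 with the drug and 3.34 with ethanol in KPR5, and 2.83 with the drug and 2.56 with ethanol in KPR8. KPR8 was at background there, so KPR4 was at least 77.5-fold above it, and 50.6-fold above KPR5. On the probe set with the lowest mean, called the dimmest here, only KPR4 exceeded background, at 4.38 with the drug and 5.09 with ethanol, against 1.52 to 2.18 on the arrays of the other lines. That puts KPR4 at least 3.73-fold above KPR5 and above KPR8, and no order of those lines can be read from it. The last probe set stayed between 3.07 and 3.39 on all arrays, just above background, with line means of 3.39 in KPR4, 3.11 in KPR5 and 3.15 in KPR8. Hnf4a is thus read from 3 of its 4 probe sets, of which the brightest and the dimmest are of the type that can match more than 1 transcript.

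4-OH tamoxifen gave no change of Hnf4a past the threshold. The limma fit over 13675 probe sets, with terms for line and treatment, used a Benjamini-Hochberg adjusted p of 0.05 as the threshold. The log2 change was 0.14 ± 0.16 on the brightest probe set (SE, adjusted p = 0.609), 0.45 ± 0.18 on the second brightest (adjusted p = 0.102) and -0.23 ± 0.17 on the dimmest (adjusted p = 0.396). The second brightest and the dimmest passed the filter through the KPR4 arrays alone, and on the dimmest all KPR5 and KPR8 arrays were under background, so that its estimate averages over lines with no measured level. In KPR4, where Hnf4a was high, the changes on those probe sets were 0.12, 0.88 and -0.71.

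Cdx2 was also highest in KPR4 and was the member that fell with the drug. Its brighter probe set read 9.51 with the drug and 10.37 with ethanol in KPR4. It read 4.86 with the drug and 5.61 with ethanol in KPR5, and 6.47 with the drug and 7.13 with ethanol in KPR8. The lines did not overlap, and here KPR8 lay above KPR5, the reverse of Hnf4a. KPR4 was 26.1-fold above KPR5 and 8.81-fold above KPR8, and KPR8 was 2.96-fold above KPR5.

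Within each line, Cdx2 was lower with the drug, with a log2 change of -0.85 for KPR4, -0.76 for KPR5 and -0.66 for KPR8. The mean over the lines was 6.95 ± 2.36 with the drug and 7.70 ± 2.43 with ethanol (SD, n = 3 each), so the groups overlap unless arrays are compared within a line. The limma change was -0.76 ± 0.16 (SE, adjusted p = 0.00628), or a level 1.69-fold higher with ethanol. The call was lost without KPR4 (limma change -0.71, adjusted p = 0.0603) and without the line term (adjusted p = 0.935). The dimmer Cdx2 probe set was under the filter, between 3.41 and 4.35. Its changes were -0.75 for KPR4, -0.20 for KPR5 and -0.16 for KPR8, and limma without a filter gave -0.37 ± 0.14 (adjusted p = 0.156).

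**Figure D2:**
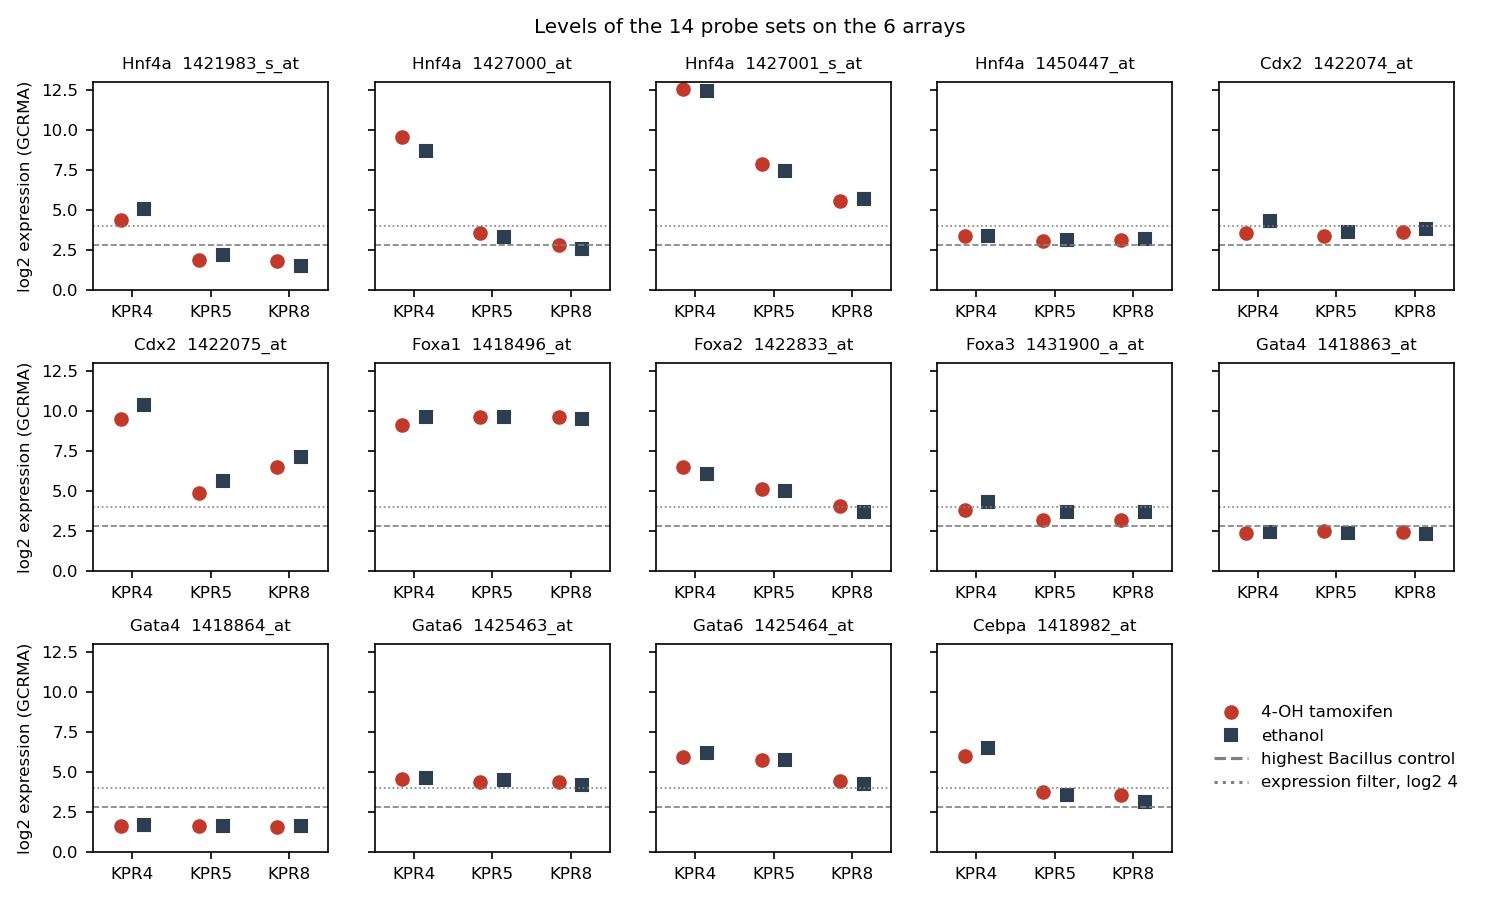
Level of each of the 14 probe sets on the 6 arrays, as log2 expression on the vertical axis, for KPR4, KPR5 and KPR8. Circles are 4-OH tamoxifen, squares are ethanol, the dashed line is the highest Bacillus control at 2.84 and the dotted line the filter at log2 4. Hnf4a, Cdx2, Foxa2 and Cebpa are highest in KPR4 on at least 1 probe set, whereas Foxa1 is level across the lines.

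The forkhead genes behaved unlike each other. Foxa1 had nearly the same level in every line, at 9.11 with the drug and 9.62 with ethanol in KPR4, 9.59 with the drug and 9.62 with ethanol in KPR5, and 9.59 with the drug and 9.47 with ethanol in KPR8. Its line means differed by 0.25 at most, less than the 0.51 between the 2 arrays of KPR4, so the lines cannot be put in order. The limma change with the drug was -0.14 ± 0.15 (adjusted p = 0.577).

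Foxa2 differed in steps across the lines. It read 6.50 with the drug and 6.07 with ethanol in KPR4, 5.16 with the drug and 5.02 with ethanol in KPR5, and 4.04 with the drug and 3.71 with ethanol in KPR8. No 2 lines overlapped. KPR4 was 2.29-fold above KPR5 and 5.29-fold above KPR8, and KPR5 was 2.31-fold above KPR8. The change with the drug was above 0 in each line (0.43 for KPR4, 0.14 for KPR5, 0.33 for KPR8) but did not pass the threshold (limma 0.30 ± 0.16, adjusted p = 0.222). Foxa2 has 3 annotated starts, and the window of the one nearest the gene body held AGATAA from -183 to -178. It also held GTTAAT from -176 to -171 and TATAAA from -208 to -203, both on the minus strand. The window of the most upstream start held ATTGATT on the plus strand from -213 to -207.

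Foxa3, the forkhead gene of liver and gut, was close to background. It read 3.80 with the drug and 4.34 with ethanol in KPR4, 3.19 with the drug and 3.70 with ethanol in KPR5, and 3.23 with the drug and 3.68 with ethanol in KPR8. It was lower with the drug in each line, by -0.54, -0.50 and -0.45. It failed the filter, being at log2 4 or above on 1 array. Limma without a filter gave -0.50 ± 0.12 (adjusted p = 0.0256), where 3.69% of all probe sets were called lower. That call was lost without KPR4 (adjusted p = 0.114), without KPR5 (adjusted p = 0.0772) and without KPR8 (adjusted p = 0.0775).

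Of the GATA genes, Gata6 was above background and Gata4 was not. Gata4 lay at background on every array, between 2.36 and 2.50 on its brighter probe set and between 1.59 and 1.72 on its dimmer one. Gata6 read 5.96 with the drug and 6.17 with ethanol in KPR4, 5.72 with the drug and 5.75 with ethanol in KPR5, and 4.44 with the drug and 4.26 with ethanol in KPR8 on its brighter probe set. Here KPR8 stood apart: KPR4 was 3.28-fold and KPR5 2.61-fold above it, whereas KPR4 and KPR5 differed by 1.26-fold, a log2 difference of 0.33. Its dimmer probe set kept the order with a smaller spread, between 4.19 and 4.65. There KPR5 and KPR8 barely separated, at 4.39 and 4.38 with the drug. Gata6 changed with the drug by -0.02 ± 0.16 on the brighter probe set (limma, adjusted p = 0.946) and by -0.01 ± 0.15 on the dimmer one (adjusted p = 0.98).

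Cebpa separated KPR4 from both other lines. It read 6.02 with the drug and 6.52 with ethanol in KPR4, 3.74 with the drug and 3.56 with ethanol in KPR5, and 3.58 with the drug and 3.11 with ethanol in KPR8. KPR4 was 6.15-fold above KPR5 and 7.62-fold above KPR8. KPR5 and KPR8 overlapped and were near background. The change with the drug was -0.51 for KPR4, 0.18 for KPR5 and 0.47 for KPR8, with a limma mean of 0.05 ± 0.19 (adjusted p = 0.893). Cebpa, too, passed the filter through the KPR4 arrays alone.

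**Figure D3:**
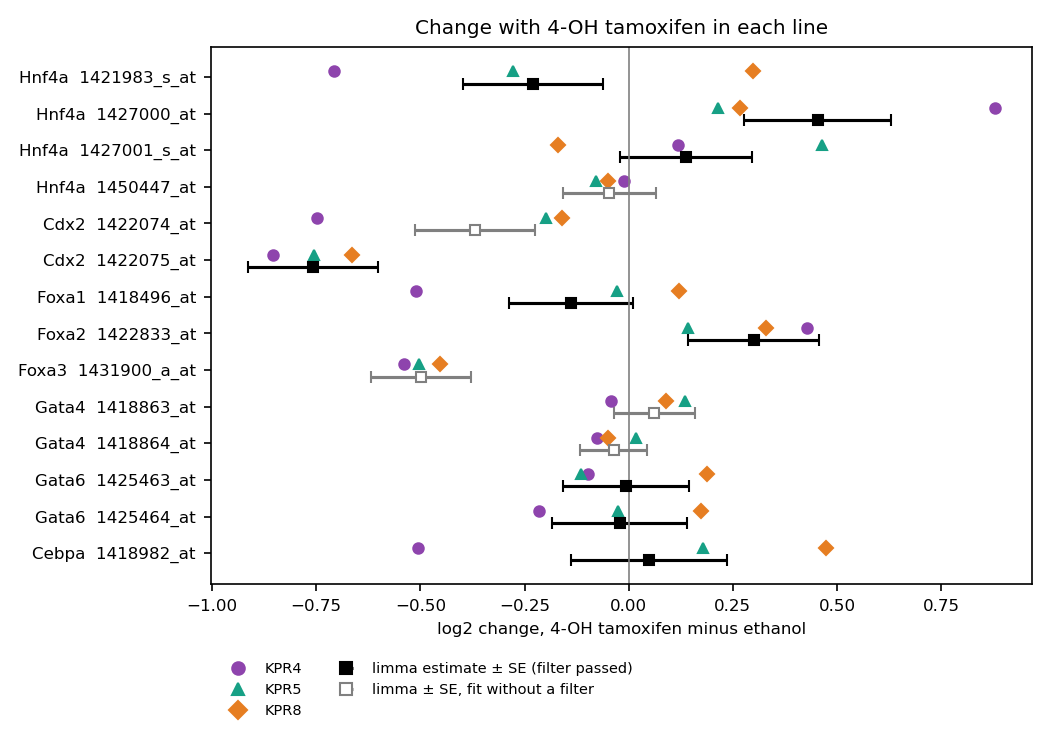
Log2 change with 4-OH tamoxifen minus ethanol for each probe set. Coloured symbols are the 3 lines, black squares with bars are the limma estimate ± SE for probe sets past the filter, and open squares are the estimate from the fit without a filter. The brighter Cdx2 probe set lies between -0.85 and -0.66 in the 3 lines, and the Foxa3 probe set between -0.54 and -0.45.

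Of the 14 probe sets, 9 passed the filter on low values, standing for 6 of the 8 genes. Among these 9, 1 fell, that of Cdx2, where 7.33% of all tested probe sets did, and 0 rose, where 7.71% did. At an unadjusted limma p under 0.05, 1 of the 9 was higher, the second brightest of Hnf4a, and 1 lower, of Cdx2, against 14.8% and 15.6% of all tested probe sets. In the fit without a filter, 0 of the 14 rose and 2 fell, of Cdx2 and Foxa3, against 4.23% and 3.69% of all probe sets. One call among 9 is near the share of all probe sets. Between lines, 6 of the 14, of Hnf4a, Cdx2, Foxa2 and Cebpa, had a KPR4 mean at least log2 1 above both other lines, and 1.94% of all 22626 probe sets did. A KPR8 mean at least log2 1 below both others was found for 3, of Hnf4a, Foxa2 and Gata6, against 0.579% of all. KPR5 was that far below for Cdx2 alone, against 0.252%. KPR4 was that far below both others for 0 of the 14 (0.959% of all), and KPR5 and KPR8 that far above for 0 (0.354% and 0.455%). All arrays of KPR4 lay over those of KPR5, and these over those of KPR8, for 6 of the 14, of Hnf4a, Foxa2 and Gata6, against 3.95% of all. The 6 include the dimmest Hnf4a probe set, whose KPR5 and KPR8 arrays were all under background. They also include the dimmer Gata6 probe set, where the drug arrays of KPR5 and KPR8 were nearly equal. Both KPR4 arrays lay above the other 4 for 10 of the 14, against 14.0%, and both KPR5 or both KPR8 arrays for 0, against 10.7% and 11.2%. A range of line means of at least log2 1 was found for 7, against 8.48%, and of at least log2 4 for 3, of Hnf4a and Cdx2, against 0.265%. In all 3 lines, 4 were lower with the drug and 2 higher, against 22.4% and 19.4% of all. The members were chosen knowing these levels, so the counts only describe them.

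Other measures of the samples were set beside these levels. The 3'-minus-5' log2 signal of the Gapdh control, a measure of RNA integrity, averaged 0.85 for KPR4, 0.92 for KPR5 and 0.75 for KPR8. For Actb the values were 1.54, 1.54 and 1.67. Ptprc, the pan-leukocyte gene, lay between 1.62 and 2.05 and Cdh5, the endothelial cadherin, between 2.67 and 2.83, all at background. Of 11 leukocyte, 10 endothelial and 13 fibroblast genes, 2, 4 and 2 were at or under background on every array. Summed over its genes, the log2 level of the leukocyte list was 40.0 to 41.2 in KPR4, 37.4 to 38.7 in KPR5 and 37.1 to 37.7 in KPR8. The sum of the fibroblast list was 58.0 to 58.7, 55.4 to 55.5 and 57.6 to 58.1, and that of the endothelial list 30.5 to 31.4, 31.0 to 32.0 and 33.0 to 33.3 in the same order of lines. The leukocyte gene Cd14 differed between lines, with 9.02 to 9.23 in KPR4, 7.03 to 7.35 in KPR5 and 6.42 to 6.54 in KPR8. With the drug, 1 of the 3 tested leukocyte genes rose, the macrophage gene Cd68 (limma 1.02 ± 0.14, adjusted p = 0.000642), and 0 of 5 fibroblast genes and 0 of 1 endothelial gene changed, against 9.17% of all tested genes higher and 7.55% lower. Of 15 epithelial genes, 5 had a KPR4 mean at least log2 1 below both other lines, against 1.26% of all 12393 genes. They were Epcam (means of 9.12, 10.60 and 10.23 for KPR4, KPR5 and KPR8), the claudin genes Cldn3 (5.95, 7.59 and 7.78), Cldn4 (4.47, 5.89 and 6.60) and Cldn7 (8.18, 9.70 and 9.92), and the splicing factor gene Esrp1 (9.08, 10.21 and 10.26). Cldn4 (limma 0.89 ± 0.18, adjusted p = 0.00647) and Dsp, encoding desmoplakin (0.52 ± 0.16, adjusted p = 0.0394), were the 2 of 14 tested epithelial genes that rose with the drug, and 0 fell. The genes named in this comparison of other cell types were picked after their values were seen. The part of these measures in the member levels was not tested.

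**Figure D4:**
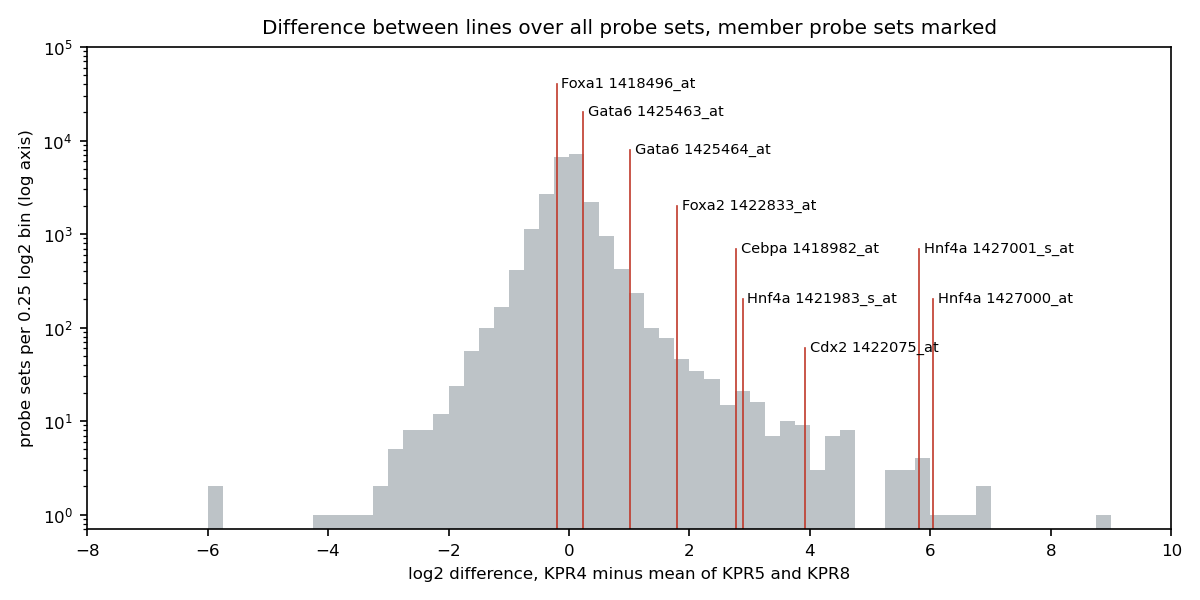
Distribution over 22626 probe sets of the log2 difference of KPR4 minus the mean of KPR5 and KPR8, with the count per bin on a log axis. Red lines mark the 9 member probe sets past the filter. They run from -0.21 for Foxa1 to 6.04 for the second brightest Hnf4a probe set.

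Genes with the pattern most like each member were found by Pearson's r over the 6 arrays among 4632 probe sets past the filter with a range of log2 1 or more. With only 6 arrays in 3 pairs, many genes reach a high r, which is given as a description. For Hnf4a they were Gstm1, a glutathione transferase (r = 0.998, on a probe set that can match related transferases), Aldh1a7, an aldehyde dehydrogenase (0.997), and Acaa2, a mitochondrial thiolase (0.997). Gstm1 read 10.19 with the drug and 10.31 with ethanol in KPR4, 7.44 with the drug and 7.06 with ethanol in KPR5, and 5.56 with the drug and 5.87 with ethanol in KPR8. For Cdx2 they were Cyp1b1, a cytochrome P450 (0.995), Nfix, a nuclear factor I gene (0.993), and the Notch ligand gene Dll1 (0.991). Foxa2 was followed by Ccnd2, encoding cyclin D2 (r = 0.9996), the helicase gene Dhx36 (0.999) and the SNARE gene Snap23 (0.995).

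For Gata6 the nearest genes were Anxa10, an annexin of gastric epithelium (0.994), Bex1 (0.993) and the adhesion molecule gene Alcam (0.990). For Cebpa they were Snapin (r = 0.9995), Pxmp4, a peroxisomal membrane protein (0.997), and the calcium-binding S100a1 (0.996). Foxa1, with little range, was followed least closely, by Vash2 (0.935), Osgin2 (0.919) and Zdhhc2 (0.8999). Other probe sets of some of these genes differed. Brighter ones of Snapin, Snap23 and Zdhhc2 had a KPR4 mean 0.33, 0.71 and 0.21 above the mean of the other lines, against 1.22, 1.07 and -0.56 on the ones named. The brighter S100a1 probe set averaged 8.20 in KPR4, 5.89 in KPR5 and 4.65 in KPR8, against 4.45, 2.94 and 2.60 on the one named. A dimmer Alcam probe set averaged 8.09 in KPR5 and 7.74 in KPR4. The brighter Anxa10 probe set averaged 8.85 in KPR4 and 7.50 in KPR5, against 5.09 and 4.86 on the one named. A Ccnd2 probe set put KPR8 (8.86) above KPR5 (8.63), and its others kept the order of Foxa2.

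Other transcription factors of gut and liver were high in KPR4 about as often as genes in general. Of 37 such genes with a probe set, 1 (2.70%) had a KPR4 mean at least log2 1 above both other lines, against 2.25% of all 12393 genes. It was Foxq1, a forkhead gene of the stomach lining, at 4.89 with the drug and 5.10 with ethanol in KPR4 and between 3.29 and 3.45 elsewhere. A range between line means of log2 1 or more was found for 3 (8.11%), against 9.87% of all genes: Foxq1, Klf5, a zinc finger factor of intestinal crypts (means of 8.65, 7.72 and 7.24 in KPR4, KPR5 and KPR8), and Tcf7l2, a Wnt effector (9.60, 8.56 and 8.79).

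With the drug, 0 of the 20 tested factors rose and 1 fell, against 9.17% and 7.55% of all tested genes, and the list's median change was -0.03 beside 0.00 for all genes. The 1 was Cebpg, a partner of other C/EBP proteins, with a limma change of -0.68 ± 0.17 (adjusted p = 0.0188). Its other probe sets gave 0.17 and -0.40 with no call. The Cebpg call was lost without KPR4 (adjusted p = 0.156) and without KPR8 (adjusted p = 0.0747).

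Marker genes of liver, intestine and stomach were high in KPR4 in part. Of 46 liver genes with a probe set, 4 had a KPR4 mean at least log2 1 above both other lines, of 36 intestinal genes 6, and of 19 stomach genes 4, or 8.70%, 16.7% and 21.1% against 2.25% of all genes. Lung epithelial genes had 1 of 22, or 4.55%. A KPR4 mean at least log2 1 below both other lines was found for 1 intestinal gene, Cldn7. It was found for 0 liver, 0 stomach and 0 lung genes, against 1.26% of all genes. These lists were drawn up with earlier results of the same arrays known, and Muc1, Cldn18 and Aqp5 are in both the stomach and lung lists. Most of each list was low throughout. Under log2 4 on every array were 34 of the 46 liver genes, 24 of the 36 intestinal genes and 11 of the 19 stomach genes. The same held for 13 of the 22 lung genes, against 4239 of all 12393 genes. The median difference of KPR4 from the mean of the other lines was 0.08 for the liver list, 0.10 for intestine, 0.27 for stomach and 0.03 for lung, against 0.00 for all genes.

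The intestinal lectin gene Lgals4 was the most extreme, at 12.46 with the drug and 12.30 with ethanol in KPR4 and between 3.25 and 3.71 in the other lines. Tmigd1 of the intestinal epithelium averaged 8.80 in KPR4, with KPR5 at 3.01 and KPR8 at 3.04. The goblet cell trefoil gene Tff3 averaged 7.51, 2.80 and 3.05 in the same order of lines. Cdh17, the liver-intestine cadherin, averaged 8.02 in KPR4, 5.05 in KPR5 and 4.00 in KPR8, in the order of Hnf4a. Other intestinal genes were not highest in KPR4. Cldn7 averaged 8.18 in KPR4, 9.70 in KPR5 and 9.92 in KPR8. In the same order of lines, Krt20 averaged 3.78, 4.99 and 4.06, and Slc15a1 averaged 3.44, 3.66 and 4.59. Among liver genes, the carrier Rbp4 averaged 9.03, 4.34 and 4.86, Ttr 7.72, 3.32 and 3.23, Apob of lipoprotein particles 5.93, 3.34 and 3.44, and Apoa1 4.76, 3.59 and 3.52. A second, dimmer probe set put Ttr 2.06 above the mean of the other lines, where the one given here had 4.44.

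Among stomach genes, the trefoil gene Tff1 averaged 9.81 in KPR4, with KPR5 at 4.29 and KPR8 at 3.52. Psca, a surface antigen, averaged 8.85, 6.40 and 6.61 in that order. Anxa10 and Ctse, encoding cathepsin E, were high in both KPR4 and KPR5, at 8.85 and 7.50 for Anxa10 and 8.86 and 8.999 for Ctse, with 4.37 and 5.30 in KPR8. KPR8 was the lowest line for both, as it was for Gata6. Aqp5, of the stomach and lung lists, was highest in KPR5, at 10.04, against 7.83 in KPR4 and 7.57 in KPR8. Of the lung list, Muc1 averaged 9.55, 8.48 and 7.26, Cldn18 10.01, 9.44 and 7.23, and Abca3 8.13, 7.25 and 6.94 in KPR4, KPR5 and KPR8, while Scgb1a1 was at background in each. Dimmer Abca3 probe sets averaged 3.84, 3.88 and 4.16, with KPR8 highest, and 3.75, 3.28 and 3.26.

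The lists hold 8 to 12 tested genes each, so 0 or 1 call with the drug is near the share of all genes. Of the tested genes, 1 of 10 liver genes, 0 of 12 intestinal, 1 of 8 stomach and 0 of 8 lung genes rose, and 0 fell, against 9.17% higher and 7.55% lower among all tested genes. The liver gene was Fah, a hydrolase of tyrosine breakdown (limma 1.30 ± 0.22, adjusted p = 0.00218), and the stomach gene was Ctse (0.56 ± 0.15, adjusted p = 0.0264). The Ctse call was lost without KPR4 (adjusted p = 0.151) and without KPR5 (adjusted p = 0.108), and its dimmer probe set gave -0.26. The median changes of the 4 lists were 0.05, -0.08, -0.04 and -0.15, beside 0.00 for all genes.

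**Figure D5:**
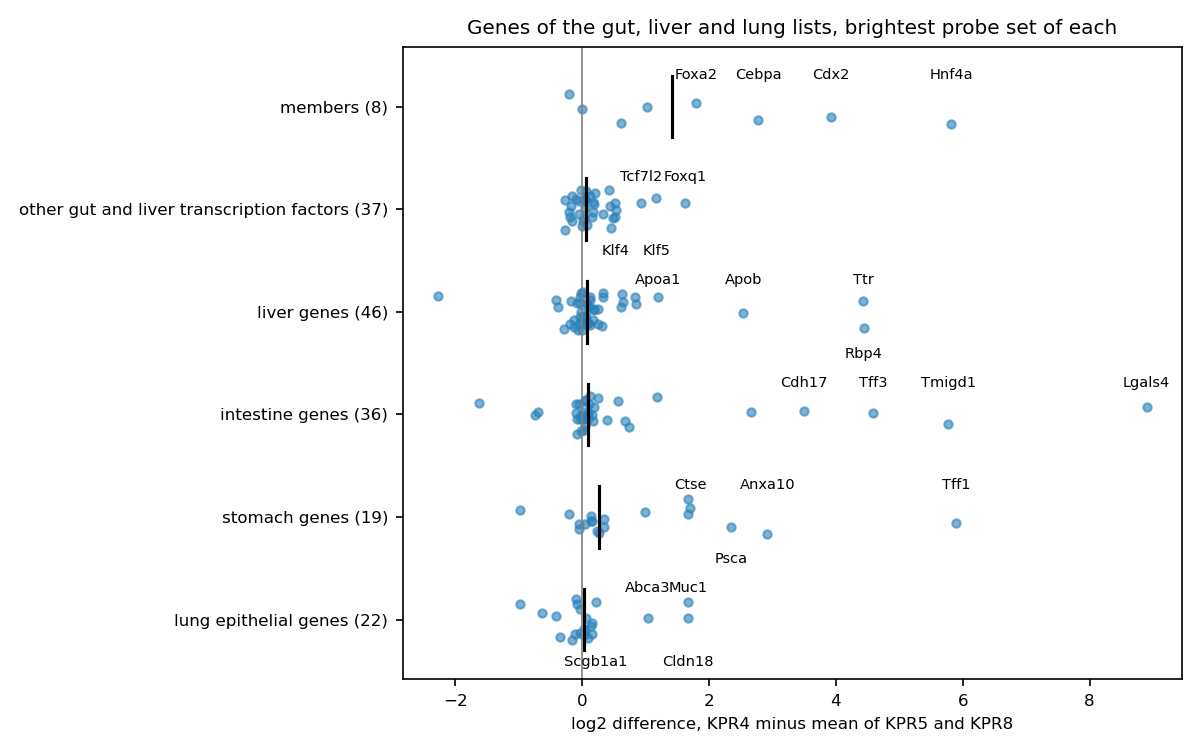
Log2 difference of KPR4 minus the mean of KPR5 and KPR8 for the brightest probe set of each gene, by list, with the number of genes in parentheses and black bars at the medians. The 4 largest of each list are named. Most liver, intestinal and stomach genes lie near 0, with a few up to 8.90 for Lgals4 and a few down to -2.27 for Afp.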

How the data were processed

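Expression was measured in 3 cell lines under 2 treatments, on 6 arrays. The authors deposited log2 expression per probe set, which the submitters' processing notes credit to GCRMA 2.20.0 and R 2.11.0. That method evens out the arrays' distributions (medians 4.56 to 4.63), so a shift of most genes together would not be seen. No detection calls or scanner values were used, and the number of arrays limits the precision. Probe sets were named only where the platform annotation gave 1 symbol (20380; 691 had several and 1555 none). Those that reached log2 4 on 2 or more of the 6 arrays were tested, so that a gene present in 1 line could enter. Changes were fitted with limma 3.58.1 in R 4.3.3 (line and treatment terms, variance trend, 2-sided, Benjamini-Hochberg over all 13675 probe sets); the residual degrees of freedom are 2, with a prior of 10.3. The script was tested on simulated data. Separate cultures are not stated. The p-values set the mean change with the drug against its variation between lines, which also holds differences between single arrays. That variance is moderated by the variance of all tested probe sets.

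The line term pairs arrays of the same cell line. Deviations from the treatment means correlated across probe sets by 0.878 for KPR4, 0.719 for KPR5 and 0.736 for KPR8. Where an array lay at or under the highest Bacillus control, it was set to it and the fold is given as at least that value. Members, lists and tests were chosen with earlier results of these data known. Named genes are the members, the 3 genes most correlated with each, the 4 of each gut, liver and lung list highest in KPR4, those of these lists past the threshold, and other factors with a range of log2 1 or more. Cebpg, Cldn7, Krt20, Slc15a1, Aqp5 and the genes of other cell types were named after their values were seen. For genes with several probe sets the one with the highest mean was used in lists. Alternatives varied the filter, the line term, the lines included, the variance model, the scaling and the summary per gene.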

Additional observations from a re-analysis of the deposited data

Results flagged for a closer look

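For 2 probe sets the change with the drug had opposite directions in 2 lines. In each of those lines it exceeded the moderated error of a single difference. Hnf4a on its dimmest probe set changed by -0.71 in KPR4 and by 0.30 in KPR8, where both arrays were at background. Cebpa changed by -0.51 in KPR4 and by 0.47 in KPR8. With 1 array per line and treatment these differences were not tested.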

How the results depend on the processing

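The counts of called probe sets, 1054 higher and 1002 lower, came to 28 and 1 with no replicate block (limma without the line term), and to 630 and 618 with the mean of each gene's probe sets, where 7509 genes were tested. They ranged from 628 to 947 higher and from 542 to 854 lower with 1 line left out, the lowest without KPR4. The fall of Cdx2 on its brighter probe set kept its call in 11 of 13 alternatives, with an adjusted p from 0.00397 to 0.935 and a change from -0.81 to -0.56. No other member probe set past the filter was called under any alternative run. Fah kept its call in 12 of 13, Ctse and Cebpg in 9 each. Apart from the losses given with each gene, the calls of Ctse and Cebpg also ended when a gene's probe sets were averaged (adjusted p = 0.539 and 0.134), and those of Fah, Ctse and Cebpg with no replicate block (adjusted p = 0.45, 0.952 and 0.404).

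The difference of KPR4 from the mean of the other lines was recomputed on 1 array per line, with no test. From the tamoxifen arrays alone and from the ethanol arrays alone it was 6.36 and 5.72 for the second brightest Hnf4a probe set, 2.52 and 3.24 for its dimmest (against lines under background), 2.36 and 3.19 for Cebpa, and -0.49 and 0.073 for Foxa1. With values under the highest Bacillus control set to it, the dimmest Hnf4a probe set gave 1.90. The fits of members under the filter with 1 line left out were added after seeing the data.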

Other observations

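Afp, the fetal liver protein gene, was the 1 liver gene with a KPR4 mean more than log2 1 below the mean of the other lines. It read 4.97 with the drug and 5.16 with ethanol in KPR4, 6.55 with the drug and 5.56 with ethanol in KPR5, and 8.81 with the drug and 8.41 with ethanol in KPR8, the line with the least Hnf4a. Dimmer Afp probe sets above background kept that order, with a mean of 3.98 in KPR4 and 5.59 in KPR8 on one of them. The brightest Afp probe set was not called with the drug (limma 0.40, adjusted p = 0.219), a dimmer one was (0.62, adjusted p = 0.0255), and the dimmest above background gave -0.05 (adjusted p = 0.851). In KPR4 alone, Ttr read 6.58 with the drug and 8.86 with ethanol, and Fabp1, the fatty acid carrier of liver and gut, 4.54 with the drug and 7.38 with ethanol, while both stayed between 3.22 and 3.41 in the other lines. Over the lines, limma gave -0.70 for Ttr (adjusted p = 0.201) and -0.95 for Fabp1 (adjusted p = 0.138). On a dimmer probe set Ttr was called lower (limma -0.91, adjusted p = 0.0347), and on another it was not (-0.69, adjusted p = 0.162). KPR5 and KPR8 averaged 3.07 and 3.32 on the former and 2.54 and 2.36 on the latter. The Ttr and Fabp1 probe sets passed the filter through the KPR4 arrays alone. Their limma estimates thus average over lines near or under background. These genes were picked after their values were seen, and the KPR4 changes rest on 1 pair of arrays.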
